A study of Rattus norvegicus with 24 samples.

Results

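The 10 genes described here encode the proteins of pulmonary surfactant and the machinery that makes, stores and recycles it in alveolar type 2 cells: Sftpa1, Sftpd, Sftpb, Sftpc, Abca3, Lamp3, Napsa, Lpcat1, Slc34a2 and Etv5. The rule names the genes and uses no measured value, though it was set with earlier results of these data known, and each gene has 1 row among the 30667 genes of the deposited table. The series set up a lung cancer model in rats with smoky coal, a bituminous coal, and profiled lung tissue by sequencing of mRNA in 24 samples. Sample titles run from A1 to A6, B1 to B6, C1 to C6 and G1 to G6, so that each of the 4 letters has 6 samples and each of the 6 numbers has 4. All 24 samples, of every letter, share the label smoky coal, and no label names a control, a dose, a time, a strain, a sex or an age, or says what the letters and numbers stand for. The labels also do not say whether samples came from separate animals, so p-values measure only the spread between these samples, which may be technical.

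Surfactant is a film of phospholipid and protein that lowers surface tension at the air-liquid interface and keeps alveoli from collapsing. Alveolar type 2 cells synthesise it, pack the lipid with the hydrophobic proteins SP-B and SP-C into lamellar bodies and secrete them, and take back and recycle much of what they release. The collectins SP-A and SP-D bind carbohydrates on microbes as part of innate defence, and NKX2-1, C/EBP, forkhead and ETS factors are known regulators of genes of this cell type.

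Across the 4 letters none of the 10 genes passed the test, and across the 6 numbers 8 of the 10 did. Samples numbered 2 had higher levels of Sftpa1, Sftpd, Lamp3, Napsa and Lpcat1, those numbered 3 had higher Slc34a2, Sftpa1, Abca3 and Sftpb, and those numbered 6 had lower Sftpd, Sftpa1, Lpcat1 and Lamp3. Etv5, a transcription factor, was the member whose levels followed the other 9 least. Numbers also separated 31.5% of all genes, and 58.3% of the 9352 genes with a mean of at least 1000, as all members have. The members' counts are therefore given beside the share of all genes in the same test.

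Values are normalized counts per gene as deposited, summing to 61717516 to 66007148 per sample (a ratio of 1.07), and the sequencing depth is unknown. They are not scaled to transcript length, so levels are compared between samples for 1 gene and not between genes. Tissue markers were present in all 24 samples: Nkx2-1, the lung lineage factor, ranged from 17800 to 32100, Epcam of epithelium from 8058 to 11020, Ager of alveolar type 1 cells from 112800 to 194200 and Scgb1a1 of club cells from 303400 to 652500. The 10 members together took 1.99% (A4) to 2.99% (B2) of a sample's total. Sample A4, which was lowest, had Krt13, a keratin of squamous epithelium, at 6899 against 13.7 to 78.6 in the other 23 samples, and Acta1, skeletal muscle actin, at 41070. Acta1 was at 11390 in B4, whose mean over the members was not low (0.10), and at most 2119 in the other 22 samples. In bulk tissue, fewer cells of a type and less RNA per cell cannot be told apart.

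Promoter sequences from 250 bases before to 50 bases after the annotated start were found in RefSeq (rat, GRCr8) for 7 of the 10 members. They were searched on both strands for 4 short cores: CTCAAG (NKX2-1), TGTTTNC (forkhead), TTGCNNAA (C/EBP) and CCGGAA (ETS), where N is any base. Printed below are those of Sftpa1 and Slc34a2, the genes with the highest difference in samples numbered 2 and 3 respectively, and of Sftpb, which held matches to 2 of the 4 cores. Matches are in capitals.

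Sftpa1 (chr16:17042014-17042313, + strand): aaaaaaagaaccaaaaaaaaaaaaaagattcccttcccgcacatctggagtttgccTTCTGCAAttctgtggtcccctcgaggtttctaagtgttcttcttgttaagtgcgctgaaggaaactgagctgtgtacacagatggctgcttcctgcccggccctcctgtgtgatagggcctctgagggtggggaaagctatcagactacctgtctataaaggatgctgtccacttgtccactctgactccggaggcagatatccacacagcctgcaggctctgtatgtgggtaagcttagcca
Slc34a2 (chr14:62143023-62143322, - strand): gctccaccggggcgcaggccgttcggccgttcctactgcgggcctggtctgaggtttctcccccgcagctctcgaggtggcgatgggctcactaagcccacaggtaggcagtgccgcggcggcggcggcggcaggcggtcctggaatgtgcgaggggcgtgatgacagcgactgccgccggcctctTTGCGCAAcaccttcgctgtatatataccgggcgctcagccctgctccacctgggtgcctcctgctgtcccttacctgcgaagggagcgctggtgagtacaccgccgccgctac
Sftpb (chr4:105917338-105917637, + strand): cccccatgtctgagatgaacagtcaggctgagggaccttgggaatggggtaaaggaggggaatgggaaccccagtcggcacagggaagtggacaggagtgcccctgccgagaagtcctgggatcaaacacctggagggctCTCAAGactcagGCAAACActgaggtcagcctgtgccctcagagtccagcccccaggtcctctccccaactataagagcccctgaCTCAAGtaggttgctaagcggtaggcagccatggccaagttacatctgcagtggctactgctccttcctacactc

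The Sftpa1 promoter held 1 C/EBP core, at bases -194 to -187 from the start, read on the opposite strand. That of Slc34a2 held TTGCGCAA at -64 to -57, a palindrome that matches the same C/EBP core on both strands. In Sftpb there were 2 NKX2-1 cores, at -110 to -105 and -25 to -20, and 1 forkhead core between them, at -98 to -92 on the opposite strand, with no overlap among the 3. Etv5 and Lamp3 each held 1 forkhead core, Abca3 held 1 ETS core, and the Lpcat1 window held none of the 4. Of 33469 promoters of the same length, 15.8% held the NKX2-1 core, 21.1% the forkhead core, 10.6% the C/EBP core and 15% the ETS core. With about 1 promoter in 10 to 1 in 5 holding any given core, these matches describe the letters of the sequence and no binding was measured. Sftpc, Sftpd and Napsa had no entry.

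The first comparison asked whether the genes differed between the letters. Sftpa1, which encodes the collectin SP-A, had a lowest, median and highest normalized count of 213686, 291950 and 478718 in A, and of 235294, 313637 and 395538 in B. In C these were 238446, 296551 and 377221, and in G 257965, 281786 and 400170. The 4 ranges overlapped widely, and 0.711% of the variance of Sftpa1 on the log2 scale lay between letters.

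Sftpb encodes SP-B, the hydrophobic protein without which lamellar bodies do not form and newborns cannot breathe. Its lowest, median and highest values were 169177, 196218 and 232368 in A, 197755, 223367 and 259281 in B, 183917, 206464 and 254490 in C, and 170665, 192976 and 206386 in G. B had the highest median and G the lowest, and their ranges overlapped. Of the members, Sftpb had the largest share of variance between letters, 31.6%.

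Etv5, an ETS factor that acts downstream of FGF receptor and ERK signalling and is needed to maintain alveolar type 2 cells, came next with 28.2%. Its lowest, median and highest values were 2424, 3601 and 4157 in A, 3525, 3980 and 4448 in B, 3376, 3871 and 4153 in C, and 3255, 3424 and 3714 in G. The low end of A was sample A2, followed by A4 at 2862, both below every sample of the other letters. G spanned the narrowest range.

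None of the 10 members passed the letter test (limma-trend on log2(value + 1), F test, Benjamini-Hochberg adjustment over all genes), where the background was 0.00652%, 2 of 30667 genes. None had an unadjusted p under 0.05 either, against 3.91% of all genes, and the adjusted p of each rounded to 1. This model held no number term, so variance between numbers counted as spread in the p-values and intervals between letters. With number as a fixed block, 0 members passed the letter test, beside 12 of all genes. In the 6 pairwise contrasts again 0 of 10 members passed (background 0% in the 3 contrasts among A, B and C, 0.00652% in both G against A and G against C, and 0.00326% in G against B). At an unadjusted p under 0.05 there were 2 members in B against A (background 3.58%) and 2 in G against B (3.67%), in each case Sftpb and Etv5. There were 0 in C against A (2.98%), G against A (8.15%), C against B (1.82%) and G against C (4.03%). Sftpb was 0.19 higher in B than in A on the log2 scale (SE 0.085, limma unadjusted p = 0.0389) and 0.24 lower in G than in B (log2 difference -0.24, limma unadjusted p = 0.0102). Etv5 differed by 0.24 in B against A (limma unadjusted p = 0.0210) and by -0.21 in G against B (limma unadjusted p = 0.0413), and none of these 4 differences was past the threshold after adjustment. Without A2 and A4, the difference of B against A was 0.07 for Etv5 and 0.12 for Sftpb. Under quantile normalization that of Sftpb was 0.11, and its difference of G against B was -0.13.

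The 95% confidence intervals of all 60 member differences between letters lay within -0.59 to 0.47 on the log2 scale. The lowest bound was that of Lamp3 in G against A (-0.28, interval -0.59 to 0.03), and the highest that of Slc34a2 in B against A (0.21, interval -0.06 to 0.47). Letter ranges overlapped in each of the 60 combinations of a member and a pair of letters, with a background of 0.203% not overlapping. The members' median share of variance between letters was 7.66%, against 9.45% over all genes and 13.04% that group sizes alone would give.

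Numbers were compared next, with letter in the model. Of the 10 members 8 passed the number test (background 31.5% of all genes, and 58.3% of the 9352 genes with a mean of at least 1000, as all members have, a reference added after the values were seen). Adjusted p-values (limma, all genes) were 0.000170 for Sftpa1, 0.000540 for Sftpd, 0.00170 for Lamp3, 0.00215 for Napsa, 0.00709 for Slc34a2, 0.00800 for Lpcat1, 0.0245 for Abca3 and 0.0382 for Sftpb. Sftpc at 0.127 and Etv5 at 0.505 did not pass. The members' median share of variance between numbers was 58.0%, beside 53.7% for genes with a mean of at least 1000, 37.1% for all genes and 21.74% from group sizes alone. When samples were left out singly, Sftpb no longer passed in 9 of 24 fits (without A3, A6, B3, B5, B6, C3, C4, C5 or G5, adjusted p up to 0.152), and Abca3 in 3 (without A3, A6 or C3, up to 0.0859). Sftpb also did not pass under quantile normalization (adjusted p = 0.293), with scaling to the 75th percentile (0.0587) or without letter in the model (0.138), and Abca3 (0.1004) and Lpcat1 (0.0735) did not pass in letters A, B and C alone.

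**Figure D1:**
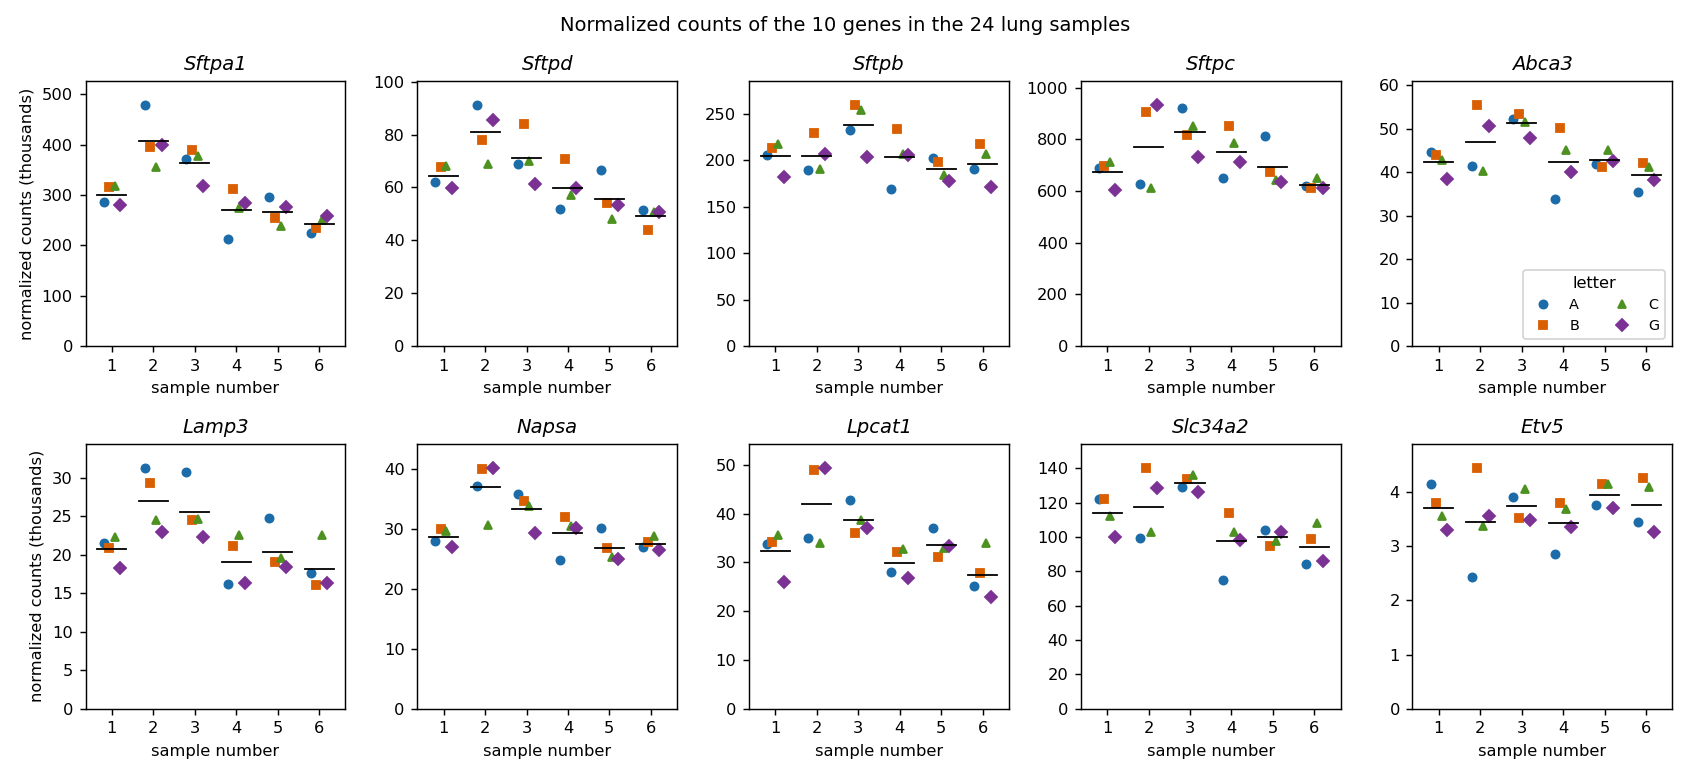
Each panel plots 1 member, with the number in the sample title on the x axis and the normalized count (divided by 1000) on the y axis, each point 1 of 24 samples marked by letter, and each line the mean of 4 samples. A2, at 478718, is the highest point of Sftpa1, samples numbered 6 are low for Sftpa1 and Sftpd, and A2 is also the lowest point of Etv5, at 2424.

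The collectins followed the numbers most closely, with 79.8% of the variance of Sftpa1 and 73.1% of that of Sftpd between numbers. Sftpa1 stood at 478718, 395538, 354918 and 400170 in A2, B2, C2 and G2, and at 371198, 388866, 377221 and 317150 in A3, B3, C3 and G3. In samples numbered 6 it was 225527, 235294, 249603 and 257965 in the same order of letters. The ranges of numbers 2 and 6 did not overlap, nor did those of 3 and 6, and the lowest value of all, 213686, was in A4. Sftpa1 was higher in number 2 than in the mean of the other 5 numbers by 0.51 on the log2 scale (SE 0.084, fold 1.42, limma adjusted p = 0.000205) and in number 3 by 0.32 (adjusted p = 0.0308), and it fell by 0.39 in number 6 (fold 0.766, adjusted p = 0.00749).

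Sftpd, which encodes SP-D, stood at 91125, 77941, 68885 and 85490 in A2, B2, C2 and G2, and at 68740, 83871, 70011 and 61226 in those numbered 3. In number 6 its values were 51430, 44070, 50749 and 50694. Every sample numbered 6 was below every sample numbered 1, 2 or 3. The log2 difference was 0.44 in number 2 (SE 0.084, fold 1.36, limma adjusted p = 0.000691) and -0.41 in number 6 (fold 0.752, adjusted p = 0.00462), while 0.21 in number 3 did not pass (adjusted p = 0.171).

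The hydrophobic proteins are SP-B and SP-C. Sftpc, whose product SP-C is made only by alveolar type 2 cells and is the usual marker of them, had 629257, 906722, 611295 and 932776 in A2, B2, C2 and G2. B2 and G2 were above and A2 and C2 below the median of 694163 over all samples, so number 2 held both low and high values of this gene. In samples numbered 3 Sftpc was 922496, 815946, 851778 and 731276, and in those numbered 6 it was 621342, 610363, 650008 and 613840, with no overlap between these 4 and the samples numbered 3. The log2 differences were 0.09 in number 2 (95% interval -0.11 to 0.29), 0.25 in number 3 (limma adjusted p = 0.166) and -0.24 in number 6 (adjusted p = 0.142).

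Sftpb was 189969, 229035, 190665 and 206386 in samples numbered 2, and 232368, 259281, 254490 and 203752 in those numbered 3. Its difference was -0.01 in number 2 (95% interval -0.14 to 0.11) and 0.25 in number 3 (SE 0.060, fold 1.19, limma adjusted p = 0.0178). In number 6 it was -0.08 (adjusted p = 0.474). Sftpb thus passed in number 3 alone of the 6 numbers, Sftpa1 in numbers 2, 3 and 6, and Sftpd in numbers 2 and 6. Whether the genes differed from each other in these contrasts was not tested.

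Among genes of the lamellar body, Abca3 encodes the transporter that moves phospholipid into the organelle, and Lamp3 encodes a membrane protein of it known as DC-LAMP. Abca3 was 52333, 53480, 51480 and 47846 in samples numbered 3, where it was higher by 0.27 (SE 0.070, limma adjusted p = 0.0269). In number 2 it was 41426, 55457, 40408 and 50709, with B2 and G2 above A2 and C2 as for Sftpc, and the difference was 0.11 (adjusted p = 0.328). Lamp3 was 31314, 29327, 24594 and 22935 in samples numbered 2 and 17649, 16066, 22580 and 16359 in those numbered 6. It was higher in number 2 by 0.39 (limma adjusted p = 0.00264) and fell by 0.30 in number 6 (adjusted p = 0.0335), where C6 stood above the other 3 samples.

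Napsa encodes napsin A, an aspartic protease that takes part in cleaving the SP-B precursor. Its values were 37192, 39999, 30551 and 40160 in samples numbered 2, and it was higher there by 0.34 (SE 0.068, fold 1.27, limma adjusted p = 0.000974). C2 lay within the range of the samples numbered 4, whose highest value was 32025. Lpcat1, the acyltransferase that remodels phosphatidylcholine into its dipalmitoyl form, was 35056, 48967, 34063 and 49362 in number 2 and 25058, 27822, 34051 and 22944 in number 6. It was higher in number 2 by 0.36 (limma adjusted p = 0.0114) and fell by 0.36 in number 6 (adjusted p = 0.0308). The call in number 2 was lost without B2 (0.28) or without G2 (0.23).

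Slc34a2 encodes the sodium-dependent phosphate transporter NaPi-2b of the apical membrane, which recovers phosphate from the alveolar fluid. It was 129094, 133881, 136002 and 126097 in A3, B3, C3 and G3. All 4 were above every sample numbered 1, 4, 5 or 6, the highest of which was 122414 in A1. Slc34a2 was higher in number 3 by 0.34 (SE 0.082, fold 1.27, limma adjusted p = 0.0188). In number 2 the values were 99382, 140296, 102771 and 128303, again with A2 and C2 below B2 and G2, and in number 6 the difference was -0.24 (adjusted p = 0.0776). Etv5 was 2424, 4448, 3376 and 3550 in number 2, so that this number held both the lowest and the highest of the 24 values. Its 6 number differences lay between -0.13 and 0.14, and none passed.

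Counted over the members, 5 of 10 were higher in number 2 and 0 lower (background 11.5% higher and 10.3% lower over all genes, 18.3% higher among those with a mean of at least 1000). In number 3, 4 were higher (background 2.89%, and 6.44% at a mean of at least 1000), with 9 at an unadjusted p under 0.05 (background 17.4%). In number 6, 4 were lower (background 4.02%, and 8.94%), with 8 at an unadjusted p under 0.05 (background 22.0%). None passed in numbers 1, 4 and 5 (background 11.9%, 4.74% and 1.97%), where 0, 3 and 4 members had an unadjusted p under 0.05 (background 23.9%, 19.4% and 15.3%). Ranges did not overlap in 36 of 150 combinations of a member and a pair of numbers, with a background of 13.6% over all genes. For this count no share was taken among genes with a mean of at least 1000.

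**Figure D2:**
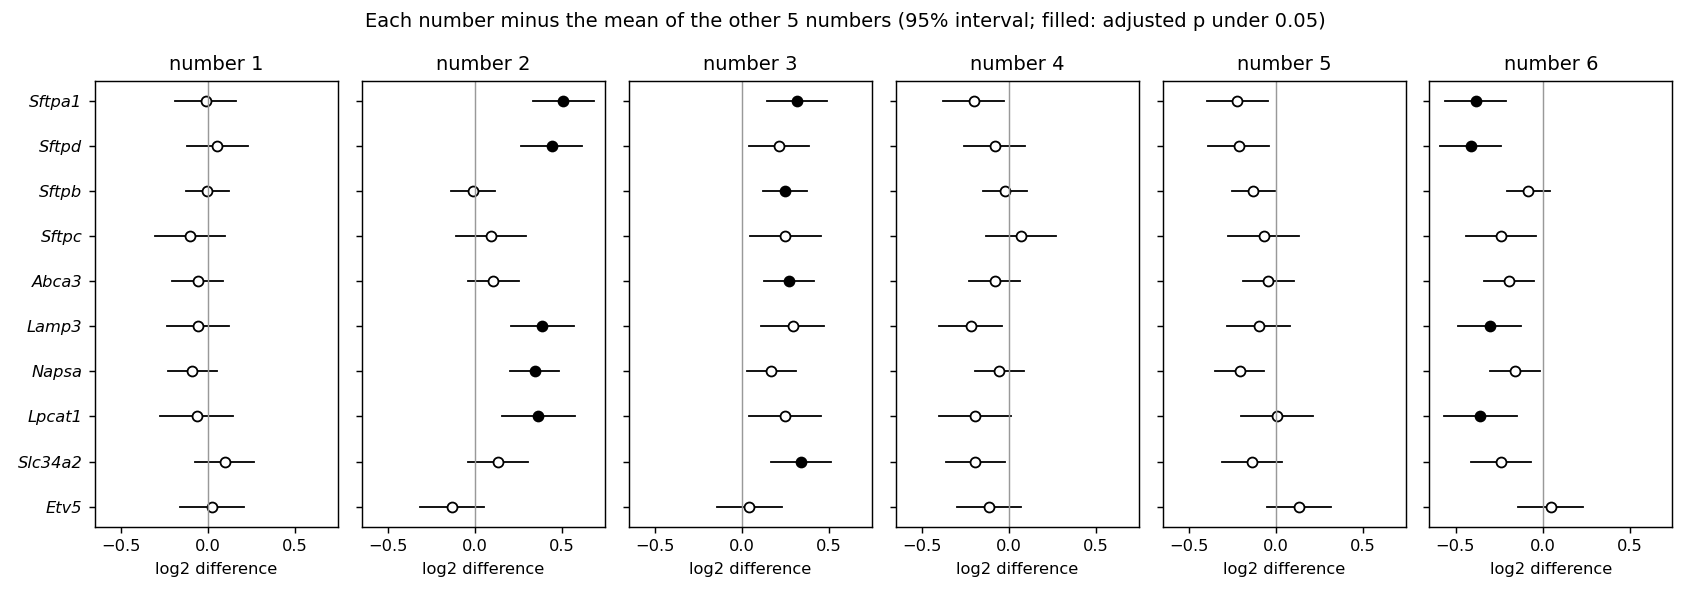
Log2 difference of each number from the mean of the other 5, on the x axis, for each member, with 95% confidence intervals from limma, and filled points where the adjusted p is under 0.05. The 5 filled points of number 2 lie to the right of 0, at 0.34 to 0.51, and the 4 of number 6 to the left, at -0.41 to -0.30.

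The counts for numbers 3 and 6 rested on few samples. In number 3 the 4 calls became 0 without A3, 1 without B3 and 0 without C3, and in number 6 they became 1 without A6, 0 without B6 and 2 without G6. The log2 differences moved less: without any 1 sample Slc34a2 in number 3 stayed between 0.31 and 0.37, and Sftpd in number 6 between -0.45 and -0.33. Under quantile normalization, which gives Sftpc the same value in all 24 samples because it ranked first in each, 2 calls were left in number 3, and Sftpa1 in number 6 was -0.13 (limma adjusted p = 0.419). Without the 4 samples numbered 2, number 3 was higher for 9 of 10 members, Etv5 being the exception (background 5.28% of all genes, and 10.8% at a mean of at least 1000). That setting takes number 2, in which 5 members were higher, out of the comparison. Larger differences of those members in number 3, as for Sftpa1 (0.32, then 0.44), followed from this.

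Within number 2 the samples split. The log2 ratio of Sftpa1 to Sftpc, taken from the mean ratio over the 24 samples, was 0.85 in A2 and 0.46 in C2, against 0.05 in B2 and 0.02 in G2. That of Sftpd to Sftpc was 0.73 in A2, 0.37 in C2, -0.02 in B2 and 0.07 in G2. In the other 5 numbers these 2 ratios lay between -0.36 and 0.24. The collectins were therefore high against Sftpc in A2 and C2, and high together with it in B2 and G2. The ratio of Sftpa1 to Sftpd varied less, between -0.23 and 0.16 over all 24 samples. An alternative without A2 and C2, which leaves B2 and G2 for this number, was chosen after the members' values were seen. It leaves out the lowest samples of number 2 for Sftpc, Abca3, Slc34a2, Lpcat1, Napsa, Sftpb and Etv5. Higher differences of these genes therefore followed from the choice. In this alternative 8 members were past the threshold as higher in number 2 (background 4.93% of all genes, and 8.35% at a mean of at least 1000). That count describes B2 and G2 and is no test of the members. The differences were 0.69 for Lpcat1, 0.48 for Napsa, 0.46 for Sftpa1, 0.45 for Sftpd, 0.44 for Lamp3, 0.41 for Sftpc, 0.33 for Slc34a2 and 0.28 for Abca3. Those of Sftpb (0.09) and Etv5 (0.12) were not past it.

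**Figure D3:**
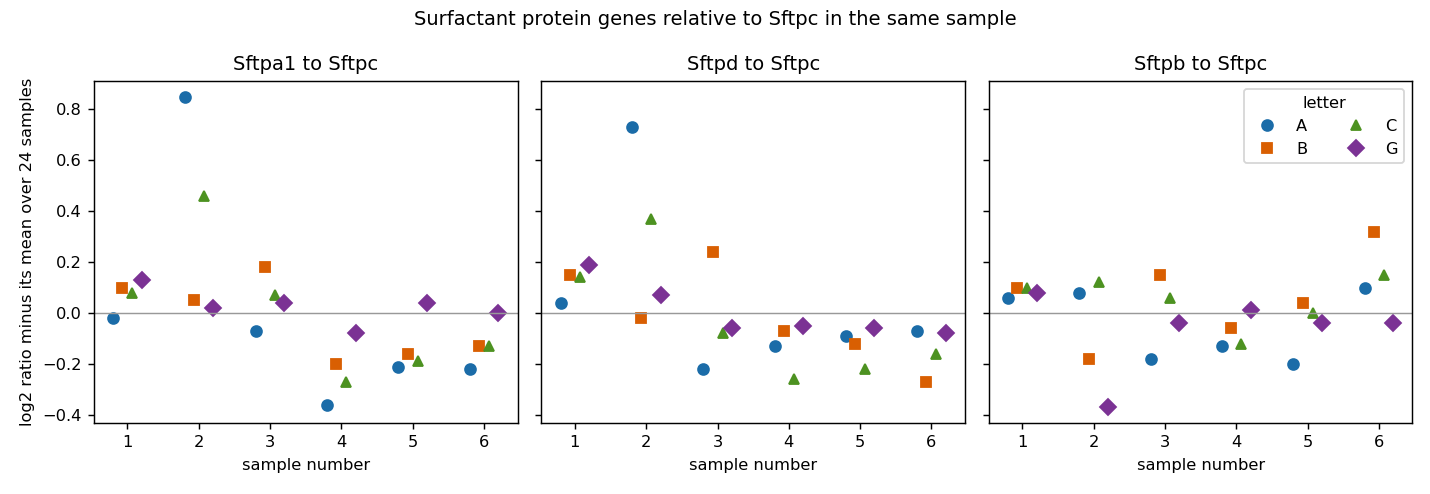
Log2 ratios of Sftpa1, Sftpd and Sftpb to Sftpc, less the mean ratio over the 24 samples, on the y axis by number on the x axis, with 1 point per sample marked by letter. A2 (0.85 and 0.73) and C2 (0.46 and 0.37) stand above the other 22 samples for Sftpa1 and Sftpd, and the Sftpb ratios lie between -0.37 and 0.32.

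Lists of markers of other cells were examined in the same contrasts, where 11.5% of all genes were higher and 10.3% lower in number 2. Of 14 alveolar type 1 markers 11 were lower and 0 higher, and their summed level was 360520 to 515160 against 492040 to 654870 in the other numbers. Of 13 endothelial markers 11 were lower, with sums of 271110 to 413680 against 380440 to 507130. Of 9 club cell markers 4 were lower and 2 higher, with Scgb1a1 at -0.47 (limma adjusted p = 0.000376). Of 11 ciliated cell markers 4 were lower and 0 higher. Of 15 macrophage markers 7 were higher and 1 lower, with sums of 88463 to 102530 against 74262 to 132400 in the other numbers, the highest of them in number 3 (110580 to 132400). Of 11 neutrophil markers 2 were higher, beside 11.5% of all genes and 18.3% of those with a mean of at least 1000. Most of the 11 had a mean under 1000. The summed level of the 11 was 37530 in A2 and 24031 in C2 against 9138 in B2, 6426 in G2 and 3264 to 18241 in the other numbers. S100a8 and S100a9, abundant in neutrophils, were at 6154 and 17610 in A2 and at 4048 and 11730 in C2. Of 7 red blood cell genes 5 were lower in number 2 (sums of 126090 to 249460 against 148510 to 1083400), of 11 lymphocyte genes 5 were higher (27898 to 90217 against 18749 to 63441), and of 13 markers of a transitional alveolar state 5 were higher (81841 to 101420 against 65528 to 98563). Among 10 fibroblast and matrix markers 3 were higher and 3 lower in number 2, with sums of 340110 to 444440. Their sums reached 529260 in number 1, and in number 6 (182360 to 241000) 1 marker was higher and 3 were lower. Over all genes 4.11% were higher and 4.02% lower in number 6 (7.38% and 8.94% at a mean of at least 1000). There 7 of 13 endothelial markers (443880 to 503320) and 7 of 11 lymphocyte genes (37796 to 49953) were higher, and 4 of 8 smooth muscle genes (17823 to 23964) were lower. In number 3, where 2.89% of all genes were higher and 2.09% lower (6.44% and 3.45% at a mean of at least 1000), 4 of 15 macrophage markers were higher. Of the 13 endothelial markers 4 were lower there. Among these lists the macrophage markers Marco, Chil3 and Ear2 and the neutrophil marker Ltf were near 0, with means of 3.2, 6.5, 8.44 and 2.16 over the 24 samples. The part of these cell types in the differences of the surfactant genes was not tested. Ager, of alveolar type 1 cells, was 112800 in A2, its lowest value, and Krt13 was at most 49.2 in samples numbered 2.

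Members were then compared with each other over the 24 samples, as correlations of log2 values. These describe samples that share letters, numbers and a normalization, and no p is given. Leaving Etv5 aside, the 36 pairs had Pearson's r of 0.50 to 0.94 with a median of 0.72. Sftpa1 and Sftpd had the highest r, 0.94 (Spearman's rho 0.94), and Abca3 and Slc34a2 had 0.91 (rho 0.86). Sftpa1 and Sftpc had 0.56. After the means of letters and numbers were taken out the 36 values were 0.21 to 0.90, with a median of 0.68. These describe the variation left once additive differences of letter and number are removed, since each combination of letter and number has 1 sample. Etv5 had r of -0.26 to 0.48 with the other 9, with a median of 0.31, and of -0.22 to 0.74, with a median of 0.52, after removal of the means. Its lowest value was with Sftpd, and A2, with the highest Sftpd and the lowest Etv5, is 1 of the points behind it.

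**Figure D4:**
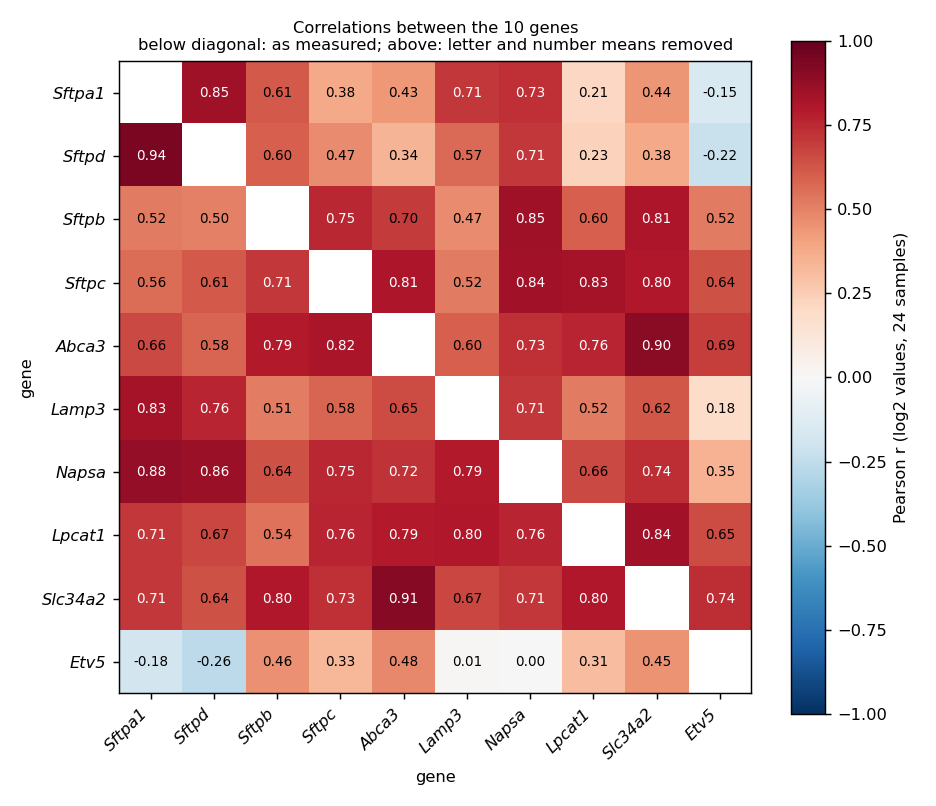
Pearson's r of log2 values between members over 24 samples, coloured from blue (negative) to red (positive), as measured below the diagonal and with the means of letters and numbers removed above it. As measured, Etv5 has values of -0.26 to 0.48 with the other 9 members, which have 0.50 to 0.94 among themselves.

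The genes most like the 10 members in their pattern were sought among 15904 genes with a mean of at least 100, by r with the members' mean centred log2 value over the 24 samples. The 5 highest were Met at 0.91, Prcp at 0.90, Car13 at 0.89, Arsb at 0.89 and Yipf1 at 0.88. Met, the receptor of hepatocyte growth factor, ranged from 4683 in A4 to 8401 in B2. Arsb, the lysosomal arylsulfatase B, ranged from 4260 in A4 to 6969 in B2. The mean of the members was itself lowest in A4 (-0.34) and highest in B2 (0.36).

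Other genes of the surfactant pathway were examined by lists. None of their genes passed the letter test or any letter contrast. Of a list, 66.7% to 87.5% passed the number test, beside 31.5% of all genes. Among genes with a mean of at least 1000, 58.3% passed it. Of all genes, 11.5% were higher and 10.3% lower in number 2. Of the 9352 genes with a mean of at least 1000, 18.3% were higher there and 2149 genes were lower. Number 3 had 2.89% higher and 2.09% lower (6.44% and 3.45% at a mean of at least 1000). Number 6 had 4.11% and 4.02% (7.38% and 8.94%). Whether the counts of a list differed from these shares was not tested. In number 2 the median log2 difference was 0.24 over the members, 0.20 over lipid synthesis, 0.06 over the lamellar body list, -0.21 over the FGF and ERK list and 0.005 over all genes. In number 6 these medians were -0.24, -0.18, -0.13, 0.18 and 0.001 in the same order. For lipid synthesis, 17 of 23 genes passed the number test, with 7 higher and 1 lower in number 2 and 9 lower in number 6. Fasn, fatty acid synthase, had means of 74815 in number 2, 81274 in number 3 and 33548 in number 6. It was higher in number 3 by 0.65 (limma adjusted p = 0.00410) and in number 2 by 0.51 (adjusted p = 0.00681), and it fell by 0.91 in number 6 (adjusted p = 0.000265). Scd2, a desaturase of fatty acids, was higher in number 2 by 0.37 and fell by 0.42 in number 6. Elovl1, an elongase of fatty acids, was higher in number 3 by 0.27.

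For the lamellar body and secretion, 16 of 21 passed the number test, with 7 higher and 3 lower in number 2 and 4 lower in number 6. Ctsh encodes cathepsin H, a protease that also takes part in processing SP-B and SP-C. It had a mean of 67927 in number 2 and of 40841 in number 6, a rise of 0.57 (limma adjusted p = 2.31e-05) and a fall of 0.30 (log2 difference -0.30, adjusted p = 0.0150). Cd63, a tetraspanin of lysosome-related organelles, was higher in number 2 by 0.25 and in number 3 by 0.19, and fell by 0.21 in number 6. Lamp1, a general lysosomal membrane protein, did not pass the number test (adjusted p = 0.0704).

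Genes of surfactant uptake and clearance gave 9 of 13 in the number test, with 6 higher in number 3. There were 3 lower and 2 higher in number 2, close to the shares given above for genes with a mean of at least 1000. Adgrf5, the receptor GPR116 that limits the surfactant pool and is also expressed in endothelium, fell by 0.51 in number 2 (limma adjusted p = 1.24e-06), from means of 97357 to 113739 in the other numbers to 74567. Lpl, lipoprotein lipase, fell by 0.41 in number 2 and was higher in number 3 by 0.40 (adjusted p = 0.000207).

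For lineage factors, 10 of 15 passed the number test and 6 were higher in number 2. Cebpa, whose product belongs to the C/EBP family, was higher in number 2 by 0.45 (limma adjusted p = 0.000366) and fell by 0.37 in number 6 (adjusted p = 0.00756). Stat3, which carries cytokine signals, did not pass the number test (adjusted p = 0.0626). Elf3, an epithelial ETS factor, was higher in number 2 by 0.82, with its highest value, 3827, in A2. Nkx2-1 itself did not pass the number test (adjusted p = 0.0953), and in number 2 it was 0.26 higher (adjusted p = 0.0354). Its mean there was 25500 with an SD of 6297 (n = 4), from 19740 in A2 to 32100 in G2.

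The FGF and ERK list joined FGF ligands and receptors, which act upstream of Etv5, with other genes of ERK output. It had more genes lower than higher in number 2. Of 16 genes 14 passed the number test, with 8 lower and 1 higher in number 2, 4 lower in number 3 and 6 higher in number 6. Fgf7, a growth factor for alveolar epithelium made by mesenchyme, fell by 0.55 in number 2 (limma adjusted p = 4.80e-05) and by 0.31 in number 3, and was higher in number 6 by 0.45. Fgfr3 fell by 0.22 in number 2 and by 0.25 in number 3. Fgfr2, the receptor of FGF7, fell by 0.47 in number 4 (adjusted p = 0.000137) and was higher in number 6 by 0.29. Dusp6, a phosphatase of ERK, did not pass the number test (adjusted p = 0.548).

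Other markers of alveolar type 2 cells gave 17 of 22 in the number test, with 9 higher and 3 lower in number 2 and 10 higher in number 3. Muc1, an epithelial mucin, was higher in number 2 by 0.82 (limma adjusted p = 2.68e-07) and fell by 0.47 in number 6. Cd74, the invariant chain of MHC class II, also abundant in immune cells, was higher in number 2 by 0.97 (adjusted p = 9.55e-07), with means of 123878 there and of 56244 to 70797 in the other numbers. Lyz2, a lysozyme of type 2 cells and macrophages, was higher in number 3 by 0.44 (adjusted p = 0.0213). The summed macrophage markers were also highest in number 3, as given above. By their mean centred log2 value they were highest in number 2 (0.44, against 0.08 in number 3). The part of macrophages in Cd74 and Lyz2 was not tested.

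Among chaperones and processing factors 10 of 14 passed the number test, with 5 lower and 1 higher in number 6. Hspa5, the chaperone BiP of the endoplasmic reticulum, was higher in number 2 by 0.45 (limma adjusted p = 0.0114) and fell by 0.79 in number 6 (adjusted p = 0.000567), from 72114 in A2 to 19713 in B6 at its extremes. Xbp1, a factor of the unfolded protein response, was higher in number 3 by 0.32 and in number 4 by 0.23, and fell by 0.39 in number 6 (adjusted p = 0.000827). Ddit3, the stress factor CHOP, was higher in number 4 by 0.51 and fell by 0.35 in number 6. Itm2b, a BRICHOS protein like SP-C, fell by 0.20 in number 2.

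**Figure D5:**
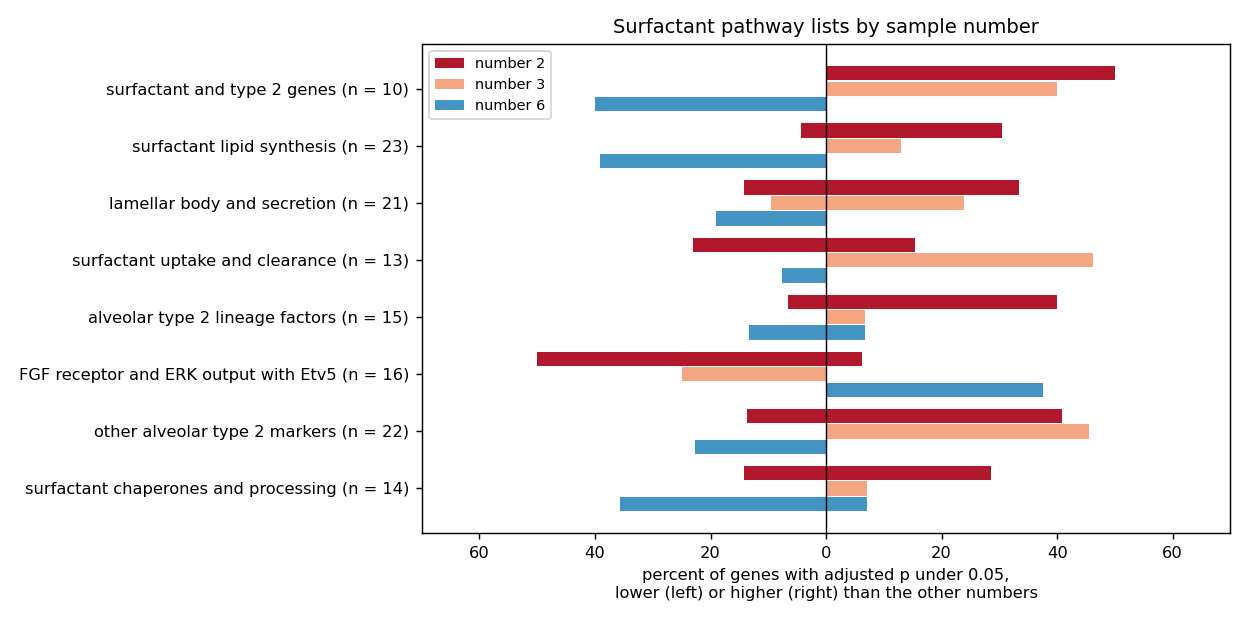
For numbers 2, 3 and 6, the percent of genes in each list with an adjusted p under 0.05, lower to the left of 0 and higher to the right, with the 10 members in the top row. The FGF and ERK list has 8 of 16 genes lower in number 2 and 6 of 16 higher in number 6, while the members have 5 of 10 higher and 4 of 10 lower in the same numbers.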

How the data were processed

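mRNA of rat lung tissue was sequenced in 24 samples. The deposited table holds normalized signal values per gene, from their form normalized read counts. STAR and GRCm38, a mouse build, are named in the submitters' processing notes with no role stated, and the counting, strand setting and normalization are not given in the sources used here. Of 30667 row names 16143, all 10 members included, match a rat RefSeq symbol and 11528 have the form of mouse clone or model names, so reads may have been assigned by mouse gene models, and genes with close paralogs are uncertain. Raw reads could not be recovered, so tests for raw counts were not run.

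Values were analysed as log2(value + 1) with limma-trend (limma 3.58.1, R 4.3.3). All 30667 genes passed a mean of at least 0.5. The letter test and 6 contrasts used a model of 4 letter means. The number test, and each number against the mean of the other 5, used letter plus number. P-values are two-sided and adjusted by Benjamini-Hochberg over all genes (threshold 0.05). Fold changes on this scale understate those of low genes. The script was tested on simulated data. Figures and summaries used Python 3.11.15.

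The named genes are the 10 members, the 5 genes most like them, in each list the 2 with the smallest number test p and the 2 with the highest mean, and 7 tissue checks. Acta1, Marco, Chil3, Ear2 and Ltf were added after their values were seen. Members and lists were chosen with earlier results of these data known. Same-number samples deviated together over 21922 genes in B against A (r 0.17 to 0.59) and C against B (0.13 to 0.60), with every pair over 0.1. In the other 4 contrasts 4 or 5 of the 6 pairs were over 0.1. The main fit took the numbers as pairs in no letter contrast, and the alternatives with a replicate block did so in all 6. No label states this pairing.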

Additional observations from a re-analysis of the deposited data

Results flagged for a closer look

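Of 100 groups of samples (each member within each letter or number) 3 held a sample far from the others by Dixon's test at the 95% level, where chance gives about 5. Sftpd in G2 was 85490, and the next highest sample of letter G was at 61226. Napsa in G2 was 40160, with the next at 30056. Sftpd in B6 was 44070, below the next lowest sample numbered 6, at 50694.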

How the results depend on the processing

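None of the 13 number differences of members that passed changed sign. Of the 47 that did not pass, 17 changed sign under some alternative, Etv5 in number 2 being the largest (-0.13, and 0.12 without A2 and C2), as did 30 of the 60 letter differences. No member passed the letter test or a letter contrast under the alternatives run for them, which did not include leaving out A2 and C2. With the replicate block (number) as a fixed term, genes passing were 12 in the letter test, 391 in G against A, 2 in G against B and 11 in G against C, and with a random replicate block 3, 89 and 2 in the first 3 of these. The block changed no call of a member. The letter test gave 1 gene under quantile normalization, 75th percentile scaling, without A2 and A4, or without samples numbered 2. Under quantile normalization 2 members passed in number 3 and 1 in number 4. With sample quality weights 3787 genes passed in number 2, 1821 genes and 1 member in number 5, and 3 genes in G against B. Without A2 and A4 there was 1 gene in G against A, 3615 in number 2, 741 in number 4, 1101 and 2 members in number 5, and 7 members in number 6. Without samples numbered 2 there was 1 gene in G against A and in G against C, 3154 genes and 9 members in number 3, and 216 genes in number 5. Without A2 and C2 there were 2943 genes and 8 members in number 2, 1 member in number 4, and 8 members in number 6. In number 5 there were 1196 genes and 1 member. The setting without A2 and C2 was chosen after the members' values were seen, so its counts are no test of them. Fitted alone, G and A differed in 5 genes, and G and C in 1. Letters A, B and C alone gave 2 members in number 3, 165 genes in number 5 and 2 members in number 6. Where a member count stands here with no gene count, genes passing stayed within 1.5 times of the main fit. Of all genes that fit had 1527 (4.98%) in number 3, 1454 (4.74%) in number 4 and 2494 (8.13%) in number 6.

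Leaving out 1 sample at a time, genes passing were 1 to 2 in the letter test, 1 to 4 in G against A, 1 to 2 in G against B and in G against C, 1917 to 4100 in number 1, 3542 (without A2) to 7111 in number 2, 543 to 2049 in number 3, 383 (without B4) to 1976 in number 4, 2 (without B5) to 891 in number 5, and 747 (without B6) to 2999 in number 6. Members passing were 0 to 5 in number 3, 0 to 1 in number 5 (1 without A4 or C2) and 0 to 6 in number 6. Where a value changed, the cause was not tested. Other alternatives (trimmed-mean scaling, a pseudocount of 0.1, a mean of at least 10, robust estimation, no letter term, promoter windows of 250 bases) left these counts within 1.5 times. No filter removed no gene, and the DESeq2 alternative was not run, since the table holds no raw counts. The unknown depth limits what can be said of any single sample.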
